A study of Mus musculus with 16 samples.

Results

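The prostaglandin genes described here are 10 genes of the mouse bladder body, chosen by name. No measured value entered that rule, but earlier results of these data were known when it was made. They comprise the cyclooxygenases Ptgs1 and Ptgs2, the terminal synthases Ptges and Ptgis, the receptors Ptger1, Ptger2, Ptger3, Ptger4 and Ptgfr, and the breakdown enzyme Hpgd. Their probes were those whose RefSeq accession on the array maps to one of these symbols, which gave 13 probes among the 55681 on the array. All 10 genes were among the 26781 tested, of which 15935 had a RefSeq symbol. The others were array entries with no such symbol, counted under their own name, and shares of all genes include them. The mice were C57BL/6, with no transgene or treatment, and fell into 4 groups of 4 mice with 1 bladder on each array. The MAT groups, male and female, held mice aged 12 months, and the AGED groups mice aged 27 to 30 months. Total RNA of the dissected bladder body, a mixture of urothelium, smooth muscle and other cells, was labelled with 1 dye and hybridized to Agilent SurePrint G3 arrays.

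Prostaglandins are short-lived lipid signals. Phospholipases free arachidonic acid from membranes, a cyclooxygenase turns it into prostaglandin H2, and a terminal synthase makes the final product, which acts on receptors of nearby cells before it is oxidised. In the bladder they are released on stretch and in inflammation, and are known to act on detrusor tone and on sensory nerve activity.

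Promoter windows of 3 genes are shown because the results below turn on them: Ptgfr, the gene with the largest age change of the 10, Hpgd, lower in AGED males on each of its probes, and Ptgs2, which varied most between arrays. Each window holds 250 bases before and 50 bases after the start of the gene as RefSeq places it on GRCm38.p6, and is written 5′ to 3′ on the strand of the gene. Entries were found for 8 of the 10 genes, and Ptger1 and Ptgis are named only. Capitals mark the motifs searched on either strand, which were the TATA box TATAAA, the GC box GGGCGG, the CCAAT box CCAAT, the E box CACGTG, the core TGACG of a cyclic AMP response element and the AP-1 site TGACTCA.
Ptgfr, chr3:151837479-151837778, minus strand: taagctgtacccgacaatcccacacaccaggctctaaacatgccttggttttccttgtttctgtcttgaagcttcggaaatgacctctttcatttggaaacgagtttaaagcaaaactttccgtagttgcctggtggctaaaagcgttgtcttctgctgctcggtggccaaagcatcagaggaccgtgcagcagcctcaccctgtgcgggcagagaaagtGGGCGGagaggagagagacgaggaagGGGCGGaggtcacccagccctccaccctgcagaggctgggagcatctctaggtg
Hpgd, chr8:56294302-56294601, plus strand: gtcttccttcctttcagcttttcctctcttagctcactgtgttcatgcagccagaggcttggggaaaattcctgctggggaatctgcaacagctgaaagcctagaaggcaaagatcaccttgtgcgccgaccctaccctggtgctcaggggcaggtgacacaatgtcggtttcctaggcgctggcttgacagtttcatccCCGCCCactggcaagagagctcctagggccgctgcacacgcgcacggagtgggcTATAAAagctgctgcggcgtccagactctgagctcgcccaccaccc
Ptgs2, chr1:150099781-150100080, plus strand: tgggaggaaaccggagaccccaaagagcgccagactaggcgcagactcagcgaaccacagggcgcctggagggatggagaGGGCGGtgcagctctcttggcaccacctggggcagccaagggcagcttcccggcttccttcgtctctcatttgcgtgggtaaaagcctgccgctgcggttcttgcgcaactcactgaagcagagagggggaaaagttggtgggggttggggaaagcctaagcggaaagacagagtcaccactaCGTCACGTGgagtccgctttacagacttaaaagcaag
The Ptgfr window held 2 GC boxes and none of the other motifs. The Hpgd window held a TATA box and 1 GC box, and the TATA box match lay past the annotated gene start, not before it. In the Ptgs2 window 1 GC box was found, and near its end the core of a cyclic AMP response element, read on the opposite strand, shared bases with an E box. This core and this E box also lay past the annotated gene start. Over 32851 windows of this length in RefSeq, a GC box was present in 35.7%, a TATA box in 13.6%, the core TGACG in 20.8% and an E box in 7.15%. Of the 8 windows found for these genes, 6 held a GC box, 1 a TATA box, 2 a CCAAT box (37.4% of all windows) and none an AP-1 site (5.2%). These matches describe the letters of the windows alone, since the arrays measured RNA and not the promoters.

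Values are log2 signals with the 75th percentile of each array set to 0, so that a value of 1 stands for a signal at 2 times that percentile. Signals of different probes are not compared with each other, because probes differ in how strongly they bind. Of the 10 tested probes, 9 were well above background on all 16 arrays and the Ptgfr probe on 15. The deposited labels gave the age and sex of every array. Directions follow these labels and run opposite to the direction in which the study lists its most changed genes. Every age direction below rests on the deposited labels, and which of the 2 is right was not tested. A gene was called when its Benjamini-Hochberg adjusted p in limma, over all genes tested, was under 0.05 and its change at least 2-fold. The arrays of males lay on 1 slide and those of females on another, and within each slide MAT arrays lay in row 1 and AGED arrays in row 2. Age therefore cannot be told apart from row, nor sex from slide. AGED male replicate 1 was the dimmest array. The log2 of its 75th percentile was 9.39 while the other AGED males had 10.13 to 10.24, and 52.3% of its probes were well above background.

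**Figure D1:**
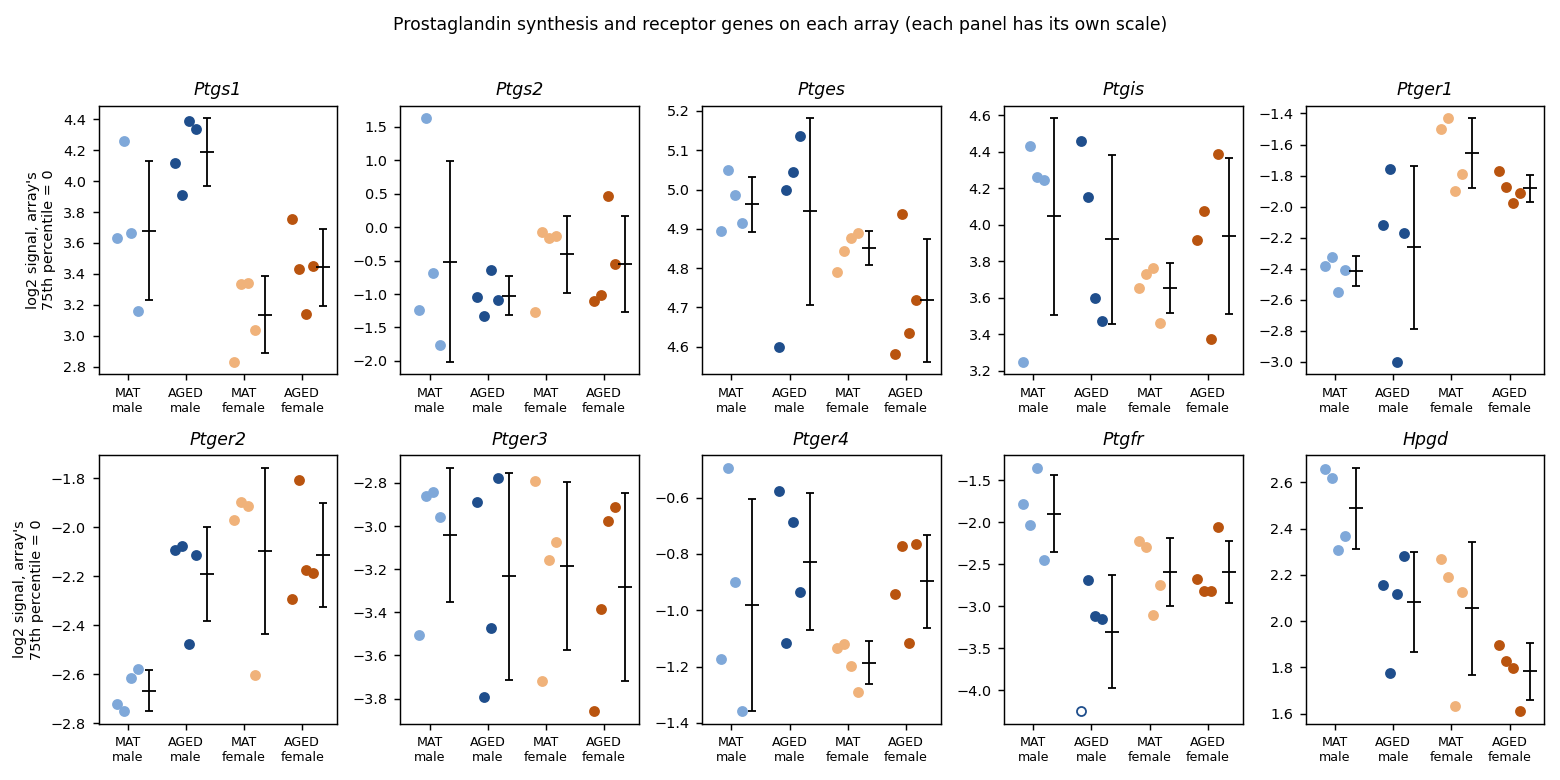
Log2 signal of the tested probe of each of the 10 genes on every array (y axis, with the 75th percentile of the array at 0) in the 4 groups (x axis). Points are arrays, open where the probe was not well above background, and the black bars give the mean and SD of 4 arrays. For Ptgfr, all 4 AGED male arrays lie below all 4 MAT male arrays, and the lowest is the open point at -4.25.

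In males, the receptor Ptgfr was the only one of the 10 genes whose age change was called, and it was lower in AGED mice. None of the 10 was called higher. Over the whole array, 0.848% of the genes were called in males, 0.276% higher and 0.571% lower. The groups did not overlap for 3 of the 10 genes (Ptgfr and Hpgd lower, Ptger2 higher), against 7.91% of all genes. The median change of the 10 genes was -0.07, and that of all genes was 0.00. In females 0 of the 10 genes were called, with 0.187% called over the whole array. At an unadjusted p under 0.05 limma gave 0 of the 10 in females, against 10.5% of all genes, and 4 of the 10 in males, against 16.3%. In RNA of whole tissue, fewer cells of a type and less RNA per cell cannot be told apart.

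**Figure D2:**
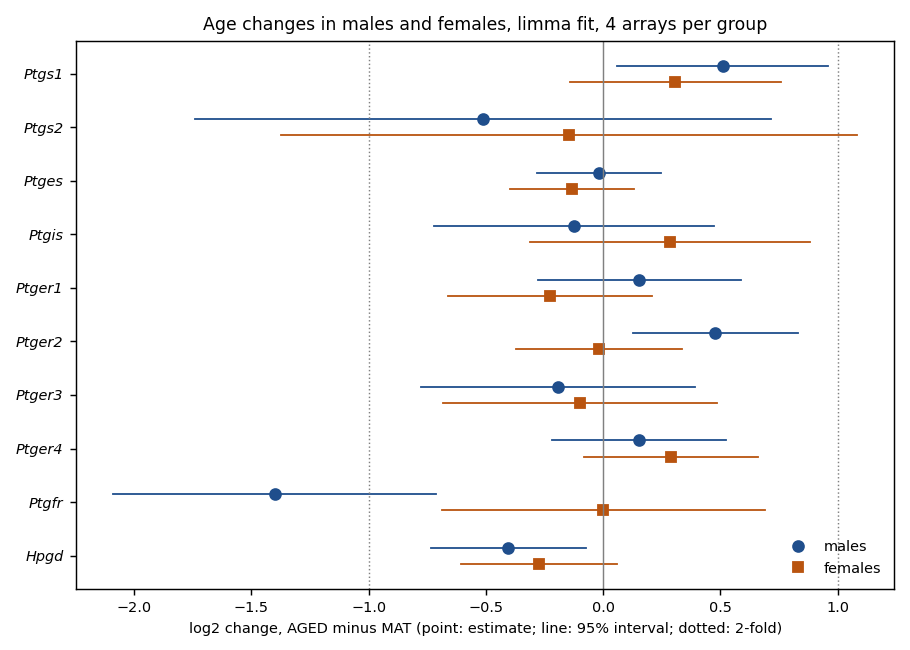
Log2 change between AGED and MAT mice (x axis) of the 10 genes (y axis) in males (circles) and females (squares). Points are limma estimates from 4 arrays per group, lines are 95% intervals and dotted lines mark a 2-fold change. The interval of Ptgfr in males runs from -2.09 to -0.71 and lies wholly below 0, whereas in females it is centred on 0.00.

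Ptgfr encodes the FP receptor, which binds prostaglandin F2 alpha and raises calcium in smooth muscle. On the MAT male arrays its log2 signal was -1.78, -2.03, -1.35 and -2.45. On the AGED male arrays it was -4.25, -2.69, -3.12 and -3.15. All AGED male arrays lay below all MAT male arrays, and the lowest of them, replicate 1, was the array on which the probe was not well above background. The mean fell by 1.40 on the log2 scale (SE 0.32, adjusted p = 0.0411 in limma), which is 2.64-fold lower. The exact permutation test, two-sided, gave p = 0.0286, the smallest that 4 arrays against 4 allow. In females the signal was -2.23, -2.30, -3.10 and -2.75 on MAT arrays and -2.67, -2.82, -2.82 and -2.06 on AGED arrays. These ranges overlapped, and the means differed by 0.00 (95% interval -0.69 to 0.69). The order of the group means was MAT males (-1.90 ± 0.46, SD, n = 4), AGED females (-2.59 ± 0.36), MAT females (-2.59 ± 0.41) and AGED males (-3.30 ± 0.67). Ranges of neighbouring groups in this order overlapped. The test of the difference between the age changes of males and females gave -1.40 (SE 0.46), with an unadjusted p of 0.00791 and an adjusted p of 0.284 in limma, so that a difference between the sexes was not called. By this test 0.149% of all genes were called.

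The call for Ptgfr in males was close to the threshold. It was kept when AGED male replicate 2, MAT male replicate 4, AGED female replicate 4 or MAT female replicate 3 was left out, and lost when any other of the 16 arrays was left out, with an adjusted p in limma of 0.0534 to 0.128. Without AGED male replicate 1 the change was -1.08, with an adjusted p of 0.0592. No alternative reversed the direction. With normexp background correction the change was -0.90, under 2-fold, with an adjusted p of 0.0171. The call was also lost with each sex fitted alone (adjusted p = 0.233), with the methods' t-test after adjustment (0.370), with array quality weights in limma (0.0659) and with the replicate number as a block in limma (0.0857).

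**Figure D3:**
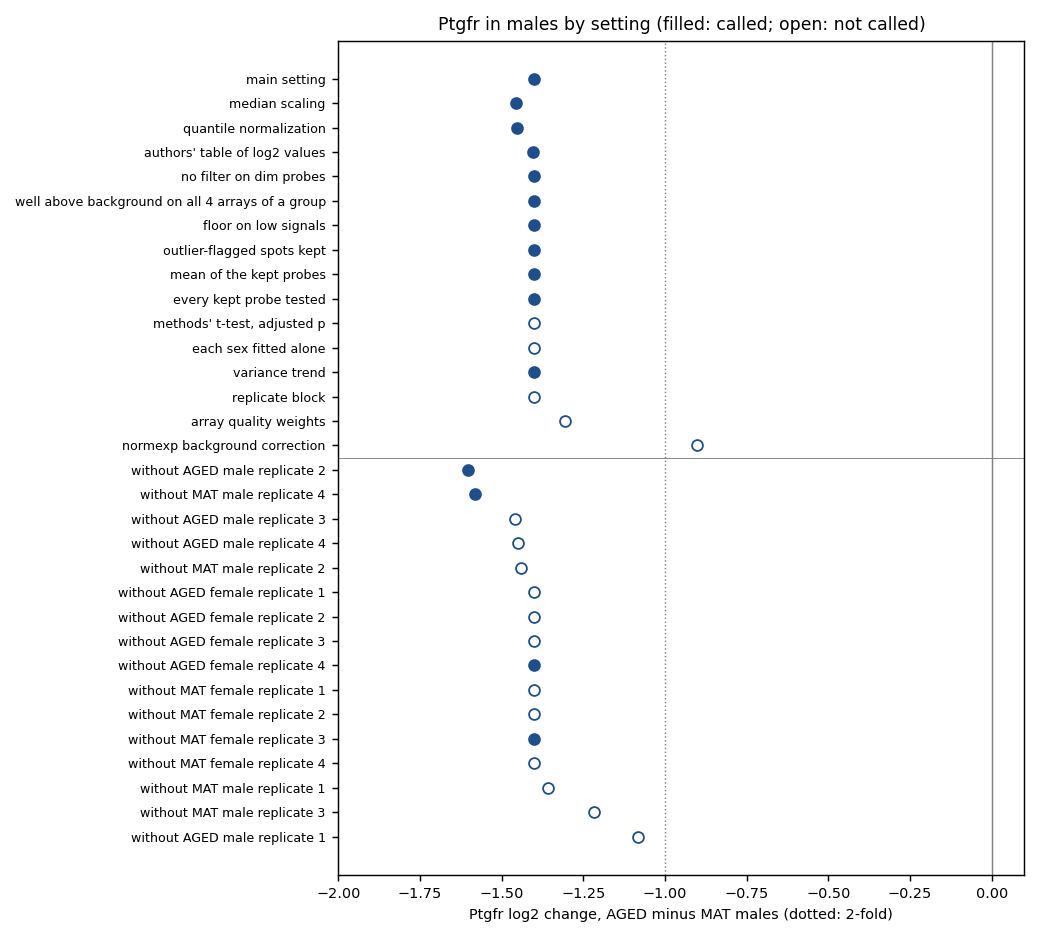
Log2 change of Ptgfr between AGED and MAT males (x axis) under each setting (y axis), with the processing alternatives above the line and the fits that leave out 1 array below it. Filled points were called and open points were not, and the dotted line marks a 2-fold change. All points lie between -1.60 and -0.90.

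Markers of cell types of the bladder were compared on the same arrays. Over all genes in males, 0.276% were called higher and 0.571% lower. At an unadjusted p under 0.05 in limma, 7.82% were higher and 8.49% lower. The male groups did not overlap for 7.91% of all genes, a share for single genes and not for sums. Of 7 fibroblast markers, 0 were called in males and 3 were lower at an unadjusted p under 0.05 in limma (Col1a1, Col1a2 and Col3a1), with a median change of -0.45. Their summed signal ranged from 563 to 656 times the 75th percentile on MAT male arrays and from 325 to 549 on AGED male arrays, with no overlap. The mean of their log2 signals did overlap, at 5.68 to 5.81 on MAT and 4.99 to 5.76 on AGED male arrays. In females the summed signal was 514 to 595 on MAT arrays and 388 to 769 on AGED arrays. Of 8 detrusor smooth muscle markers, 0 were called in males (median change 0.03), and of 9 urothelial markers, 0 were called (median change 0.07). Of 5 neutrophil markers tested, S100a8 and S100a9 were called higher in AGED males, with changes of 2.43 and 3.08 and adjusted p of 0.0211 and 0.0125 in limma. Of the other 3, Retnlg differed by 1.38 (adjusted p = 0.214 in limma), Csf3r by -0.04 and Cxcr2 by -0.01, and the summed signal of the 5 overlapped (80.4 to 89.9 on MAT and 80.3 to 98.9 on AGED male arrays). The study lists S100a9 among the genes lower in aged mice of both sexes, the reverse of the direction by the deposited labels. Of 6 T cell markers, 0 were called and 2 were higher at an unadjusted p under 0.05 in limma, and all 6 estimates were above 0 (median 0.81). Their summed signal was 3.23 to 4.11 on MAT and 3.55 to 17.1 on AGED male arrays. Of 6 markers of B and plasma cells, 0 were called and none had an unadjusted p under 0.05 in limma, while all 6 estimates were above 0 (median 0.79), with summed signals of 0.729 to 7.46 and 1.40 to 12.5. Markers of endothelium, macrophages, mast cells and peripheral nerve were also compared, and 0 were called in males. In females 0 markers of any list were called. There, 5 of 6 nerve markers were lower without overlap, against 5.79% of all genes. Higher without overlap in females were 3 of 7 macrophage and 3 of 5 neutrophil markers, against 5.02%. The part of these markers in the signal of Ptgfr was not tested.

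The receptors of prostaglandin E2 were not called in either sex. Ptger2, the EP2 receptor, which raises cyclic AMP and relaxes smooth muscle, had signals of -2.72, -2.75, -2.62 and -2.58 on MAT male arrays and -2.09, -2.07, -2.48 and -2.11 on AGED male arrays. These ranges did not overlap, and the means differed by 0.48 (SE 0.17, adjusted p = 0.167 in limma). In females the Ptger2 means differed by -0.02, with a 95% interval of -0.37 to 0.34. MAT males lay lower than MAT females by 0.57 on average, with an adjusted p of 0.141 in limma, and 3 of the MAT female arrays were between -1.97 and -1.90 while the other was at -2.60.

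Ptger4, the EP4 receptor, which also raises cyclic AMP, was the only one of the 10 genes whose groups did not overlap by age in females, against 10.8% of all genes. Its signal was -1.14, -1.12, -1.20 and -1.29 on MAT female arrays and -0.94, -0.77, -1.12 and -0.76 on AGED female arrays. The lowest AGED array and the highest MAT array were thus at the same value to 2 decimals. The means differed by 0.29 (SE 0.17), with an adjusted p of 0.602 in limma and an exact permutation p of 0.0286. In males the difference was 0.15 and the ranges overlapped.

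Ptger1, the EP1 receptor, which raises calcium, was not called by age or by sex. It was at -2.38, -2.32, -2.55 and -2.41 on MAT male arrays and at -1.50, -1.43, -1.90 and -1.79 on MAT female arrays. All MAT males lay below all MAT females, by 0.76 on average (SE 0.20, adjusted p = 0.117 in limma), which was not called, and 18.9% of all genes did not overlap in this comparison. Between AGED males and AGED females the difference was -0.38, with overlap and an adjusted p of 0.255 in limma. Its age changes were 0.15 in males and -0.23 in females. The 4 AGED male arrays ranged from -3.001 to -1.76, wider than any other group of this gene. For Ptger3, the EP3 receptor, which lowers cyclic AMP, all 16 arrays lay between -3.86 and -2.78, and the age changes were -0.19 in males and -0.10 in females. Its dimmer probe, well above background on 13 of the 16 arrays, gave 0.09 and 0.05.

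Hpgd encodes the enzyme that oxidises prostaglandins at carbon 15 and so ends their action, and it was measured by 2 probes. The brighter probe was at 2.66, 2.62, 2.31 and 2.37 on MAT male arrays and at 2.16, 1.78, 2.12 and 2.28 on AGED male arrays. The dimmer probe was at 2.13, 2.07, 1.77 and 1.89 on MAT male arrays and at 0.64, 1.10, 1.58 and 1.54 on AGED male arrays. On each probe all AGED males lay below all MAT males. The differences between the means were -0.40 (SE 0.16, adjusted p = 0.213 in limma) and -0.75 (SE 0.21, adjusted p = 0.0915 over all kept probes), and neither was called. In females the differences were -0.27 and -0.20 and the ranges overlapped. MAT males were higher than MAT females on each probe without overlap, by 0.43 (adjusted p = 0.229 in limma) and 0.45 (adjusted p = 0.374).

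**Figure D4:**
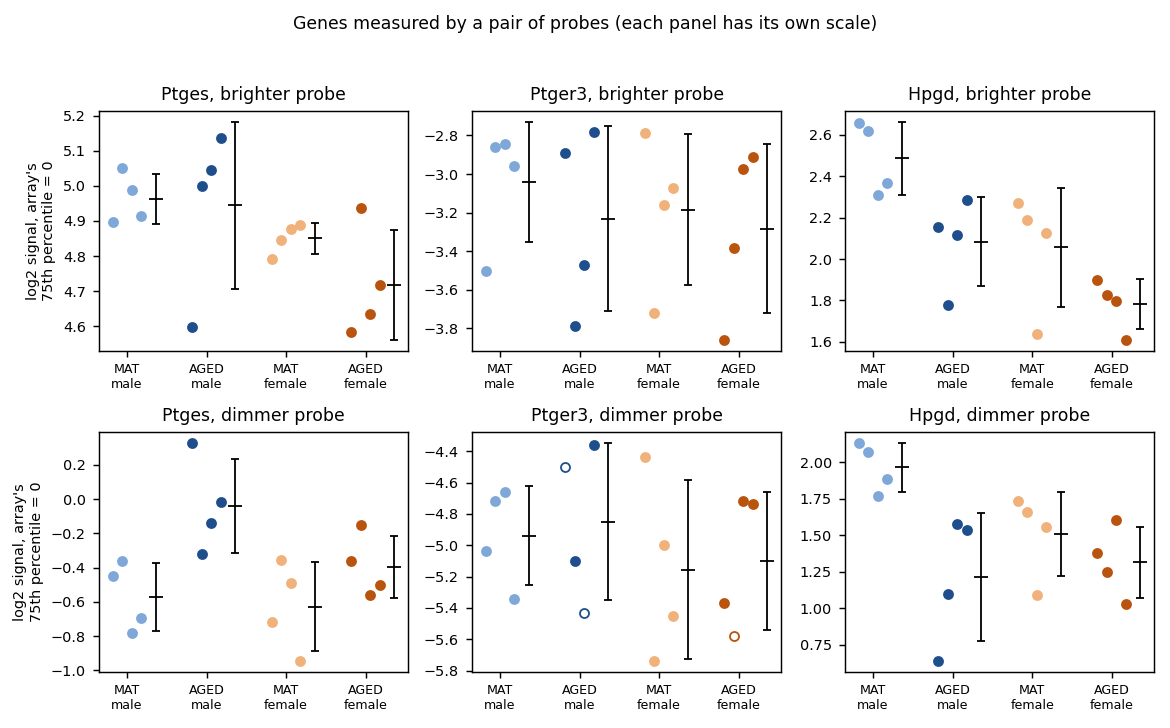
Log2 signal on every array (y axis) for the 3 genes with a pair of probes, Ptges, Ptger3 and Hpgd, in the 4 groups (x axis), with the brighter probe above and the dimmer probe below. Points are arrays, open where not well above background, and black bars give the mean and SD of 4 arrays. For Hpgd the AGED males are below the MAT males on both probes, and for Ptges only the dimmer probe separates them.

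Ptges, the inducible synthase that makes prostaglandin E2, gave different answers on its probes. The brighter probe was at 4.90, 5.05, 4.99 and 4.91 on MAT male arrays and at 4.60, 4.999, 5.05 and 5.14 on AGED male arrays, a difference of -0.02 (95% interval -0.28 to 0.25). The dimmer probe was at -0.45, -0.36, -0.78 and -0.70 on MAT male arrays and at 0.33, -0.32, -0.14 and -0.02 on AGED male arrays. On that probe all AGED males lay above all MAT males, by 0.53 (SE 0.17, adjusted p = 0.137 in limma), which was not called. On AGED male replicate 1 the brighter probe had the lowest value of its group and the dimmer probe the highest. In females the differences were -0.13 on the brighter and 0.23 on the dimmer probe, with overlap on each. Ptgis, which makes prostacyclin, differed by -0.13 in males and 0.28 in females. Its values ran from 3.25 to 4.43 on MAT male arrays and from 3.48 to 4.46 on AGED male arrays, and from 3.46 to 3.76 on MAT female arrays and from 3.37 to 4.39 on AGED female arrays, so that the age groups overlapped in each sex.

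Ptgs1, the cyclooxygenase that most tissues make at a steady level, was at 3.63, 4.26, 3.66 and 3.16 on MAT male arrays and at 4.12, 3.91, 4.39 and 4.34 on AGED male arrays. On MAT female arrays it was at 2.83, 3.34, 3.34 and 3.04 and on AGED female arrays at 3.75, 3.43, 3.14 and 3.45. AGED means were higher by 0.51 in males (SE 0.21, adjusted p = 0.246 in limma), and the female difference of 0.31 had an adjusted p of 0.658, with overlap in each sex. All AGED males lay above all AGED females, by 0.74 (SE 0.21) or 1.67-fold. The adjusted p of 0.0392 in limma passed its threshold, but the size stayed under the 2-fold limit, so that 0 of the 10 genes were called between AGED males and AGED females, against 3.11% of all genes. With no fold limit 9.52% of all genes passed. Between MAT males and MAT females 0 of the 10 were called, against 0.157% of all genes, and Ptgs1 differed by 0.54 (adjusted p = 0.266 in limma). Over all genes the median difference between males and females was 0.08 in either age group. These differences cannot be told apart from slide.

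Ptgs2, the cyclooxygenase that is induced by stretch, injury and inflammation, varied more between arrays than any other of the 10 genes, with an SD of 0.83 over the 16 arrays. It was at -1.24, 1.63, -0.68 and -1.77 on MAT male arrays and at -1.05, -1.33, -0.63 and -1.09 on AGED male arrays. In females it was at -1.26, -0.07, -0.17 and -0.13 on MAT arrays and at -1.10, -1.02, 0.47 and -0.55 on AGED arrays. Age differences were -0.51 in males (SE 0.57, adjusted p = 0.684 in limma) and -0.14 in females (adjusted p = 0.965). The highest value was that of MAT male replicate 2, and without this array the difference in males was 0.21 (adjusted p = 0.843), the opposite direction. The 95% interval of -1.74 to 0.72 in males does not exclude changes of more than 2-fold downwards.

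The genes whose signals followed those of the 3 most variable genes most closely over the 16 arrays were found by the root mean square of the differences between log2 signals, each centred on its mean. For Ptgs2 they were Csrnp1 and Nr4a1, each at 0.48, and Grifin at 0.49, where the median over 13390 candidate genes was 0.86. Like Ptgs2, these 3 were highest on MAT male replicate 2. For Ptgfr they were Sprn at 0.37, Ablim1 at 0.39 and Cgrrf1 at 0.40 (median 0.71). On AGED male replicate 1, the dimmest array, the centred value was -1.66 for Ptgfr, -1.46 for Sprn, -1.19 for Ablim1 and -1.15 for Cgrrf1. Cgrrf1 was lower still on AGED male replicate 4, at -1.36. The nearest genes to Ptgs1 were Ap1s3 at 0.18, Rab20 at 0.19 and Rusc1 at 0.20 (median 0.52). The distance describes likeness alone, since all genes of an array share its hybridization.

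**Figure D5:**
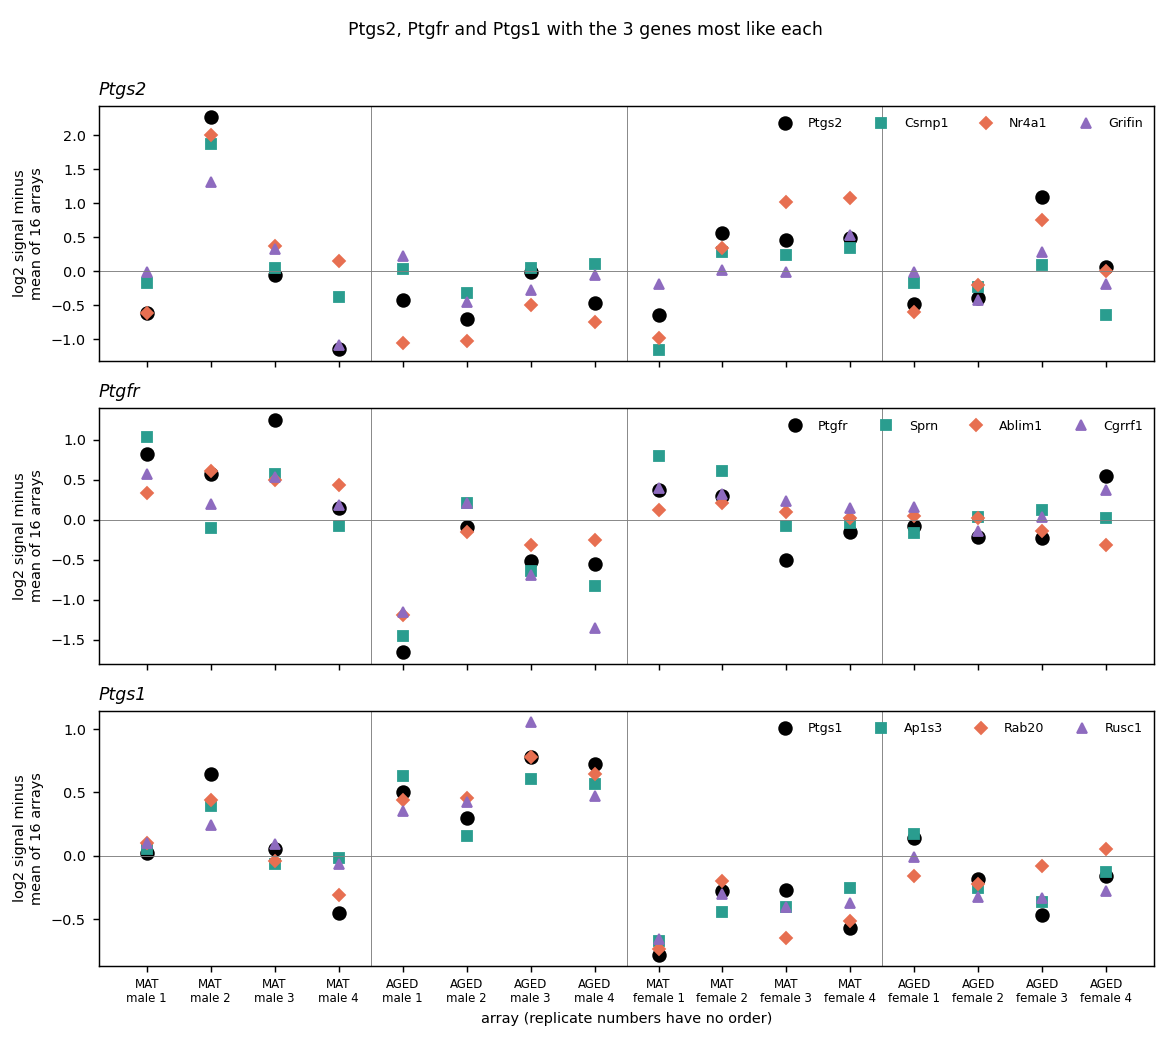
Log2 signal less the mean of the 16 arrays (y axis) on each array (x axis, in groups, with replicate numbers that carry no order) for Ptgs2, Ptgfr and Ptgs1 (black circles) and the 3 genes nearest to each. Ptgs2, Csrnp1, Nr4a1 and Grifin all peak on MAT male replicate 2.

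Of 32 other genes of prostanoid synthesis, reception, transport and breakdown, 30 were tested and 0 were called by limma in males or in females. In males 3 had an unadjusted p under 0.05 (1 higher, 2 lower), where 16.3% of all genes did, and in females 4 (all lower), where 10.5% did. The median changes of the 30 were 0.01 in males and 0.05 in females. Pla2g4a, the cytosolic phospholipase that frees arachidonic acid, was at 3.37, 3.70, 3.18 and 3.61 on MAT male arrays and at 3.39, 2.10, 1.81 and 2.78 on AGED male arrays. Replicate 1 was the AGED male array that overlapped with the MAT males. The mean difference was -0.94 (SE 0.26, adjusted p = 0.0841 in limma), and 0.12 in females. Without AGED male replicate 1 the difference in males was -1.23, with an adjusted p of 0.00627 in limma, which was called. In that fit 300 genes were called in males over the whole array, in place of 227.

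Pla2g2d, a secreted phospholipase known from lymphoid tissue, was at 0.91, 0.62, 0.63 and 0.85 on MAT female arrays and at -0.71, -0.42, -0.22 and -0.30 on AGED female arrays. These ranges did not overlap and the means differed by -1.17 (SE 0.38, adjusted p = 0.294 in limma). In males it was at 0.48, -0.14, -0.02 and 0.38 on MAT arrays and at 0.92, -0.67, -1.52 and -1.23 on AGED arrays, where replicate 1 lay above all MAT males. The male difference was -0.80 (adjusted p = 0.310 in limma). When AGED male replicate 1 was left out of the fit, Pla2g2d was called lower in males, with a difference of -1.32 and an adjusted p of 0.00531. The female difference stayed at -1.17, and its adjusted p, which rests on the spread of all arrays in the fit, became 0.0118 in limma and was called as well. Whether Pla2g2d was called thus depended on that array. Over the whole array, the fit without it called 127 genes in females, in place of 50.

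The other genes named by the same rule were not called. Pla2g5, another secreted phospholipase, was lower in AGED than in MAT females without overlap (-1.03, adjusted p = 0.354 in limma). Ptgir, the prostacyclin receptor, differed by -0.64 in females (adjusted p = 0.282) and -0.02 in males, and MAT males lay below MAT females without overlap (-0.82, adjusted p = 0.0974). For Ptgdr, a receptor of prostaglandin D2, the male difference of 0.70 had an adjusted p of 0.196, and the female difference was 0.38. Ptgdr2, the other receptor of prostaglandin D2, did not exceed background well on any of the 8 AGED arrays, and no fold is given for it. Named because their probes gave the brightest signals of the list, which does not rank their RNA amounts, were Akr1b3 and Cbr2, reductases, and Ptges3, a cytosolic synthase of prostaglandin E2. Their age changes lay between -0.33 and 0.09 in males and between 0.05 and 0.14 in females.

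Of 12 genes of the lipoxygenase and leukotriene pathways, which use the same arachidonic acid, 11 were tested and 0 were called by limma in either sex, where 0.848% of all genes were called in males and 0.187% in females. At an unadjusted p under 0.05 limma gave 3 of the 11 in males, against 16.3% of all genes, and 1 in females, against 10.5%. Alox12, a platelet-type lipoxygenase, differed by -0.85 in males (adjusted p = 0.167 in limma) and -0.39 in females. Alox12e, an epidermal lipoxygenase, had an adjusted p of 0.134 for a difference of -0.70 in males and of 0.285 for -0.69 in females, where the groups did not overlap. Its signal was not well above background on 1 AGED male and 2 AGED female arrays. Lta4h, Alox5ap and Ltc4s, genes of leukotriene synthesis, differed by 0.38, 0.51 and 0.30 in males and by 0.03, 0.67 and 0.08 in females, with adjusted p of 0.295 to 0.979 in limma.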

How the data were processed

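Bladder RNA of 16 mice was measured with 1 array per mouse. Spot intensity was deposited by the authors as written by Agilent Feature Extraction (version 9.1 in the submitters' processing notes, 10.7.3.1 in the file headers), background-subtracted, with no normalization between arrays. A second table deposited by the authors holds log2 values. Checked against the scanner values, these are log2 processed signals less 1 constant per array, with each probe centred on its median, and they were used as an alternative. The scale and centring of that table were settled by this check. It compared values under the same array labels, so it cannot tell whether the age labels are right.

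The processed signals were put on the log2 scale and each array was scaled by subtracting the 75th percentile over its non-control spots. Spots with an outlier flag (399 probe values) were left out, and no spot was saturated. Spots of a probe were averaged. The 36972 of 55681 probes that were well above background on 4 or more arrays were kept, and each of 26781 genes was represented by its kept probe of highest mean. Of these genes, 15935 had a RefSeq symbol. The others were array entries without one, kept under the name the array gives them. Of all probes, 26582 were named through RefSeq accessions (GRCm38.p6, for names and promoters). The limma package 3.58.1 (R 4.3.3) fitted the means of the 4 groups jointly, leaving 12 residual degrees of freedom, with Benjamini-Hochberg adjustment over all genes. Exact permutation tests were two-sided. Whether mice shared a cage or litter is not given in the sources used here. The number of arrays limits the precision.

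The 10 genes and the lists of other genes were chosen with earlier results of these data known. From the 2 pathway lists, the genes named were those whose age change in either sex was 1.5-fold or more with an unadjusted p under 0.05, and the 3 whose probes had the highest mean signal, which is no order of RNA amounts. The fit was tested on simulated arrays. Alternatives covered the scaling, background correction (normexp, offset 50, on the median spot signal, since the mean was not used here), filters on dim probes, the choice of probe, the test, weights, a replicate block and leaving out each array. Counts of groups that do not overlap under other settings, and the pathway list without AGED male replicate 1, were added after the data were seen.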

Additional observations from a re-analysis of the deposited data

Results flagged for a closer look

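Single arrays that stood apart from the other 3 of their group were looked for in 108 groups of 4 values (13 probes, the gene lists and the 75th percentile), with the gap to the nearest array divided by the range of the group. This ratio passed its 95% critical value in 7 groups, or 6.48%, and chance alone gives about 1 in 20. Ptgs2 was low on MAT female replicate 1 (-1.26, the others -0.17 to -0.07, ratio 0.917). Ptger2 was low on AGED male replicate 3 (-2.48, the others -2.11 to -2.07, ratio 0.906) and on MAT female replicate 4 (-2.60, the others -1.97 to -1.90, ratio 0.892). Ptgis was low on MAT male replicate 1 (3.25, the others 4.24 to 4.43, ratio 0.840). Ptger3 was low on the same array (-3.50, the others -2.96 to -2.84, ratio 0.8291). The mean log2 signal of 6 endothelial markers was high on MAT male replicate 4 (0.75, the others 0.52 to 0.55, ratio 0.853). The 75th percentile of AGED male replicate 1 was low (ratio 0.873), the array on which Ptgfr, Ptges on its brighter probe and Hpgd on its dimmer probe had the lowest values of their group. Ptgis, Ptger4 and Ptges on its dimmer probe had the highest values of their group on that array. No gene of the 10 differed in its age change between males and females after adjustment, and none moved without overlap in opposite directions in the sexes.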

How the results depend on the processing

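The count of the 10 genes called in males was 0 in place of 1 with normexp, with only probes well above background on all 16 arrays (where Ptgfr was not tested), with the methods' t-test after adjustment, with each sex fitted alone, with array quality weights and with the replicate number as a block, and 0 to 1 when 1 array was left out. The adjusted p of Ptgfr in males was 0.370, 0.233, 0.0659 and 0.0857 in the last 4 of these settings. The block was a description only, since arrays of the same number did not deviate together (correlations of -0.15 to 0.07). The number equals the column of the slide, so no other block was run. The difference of age changes gave 1 call in place of 0 with unadjusted p, and AGED males against AGED females 1 with no fold limit. Groups not overlapping in females were 2 with quantile normalization and 0 with normexp, in place of 1, and 1 to 3 when 1 array was left out (3 without AGED female replicate 3, 2 without AGED female replicate 2 or MAT female replicate 3). In the main setting 10.8% of all genes did not overlap, and the shares in the other settings are not given here. With fewer arrays, groups separate more often by chance, so no conclusion is drawn from these counts. Without AGED male replicate 1, the other prostanoid genes gave 2 calls in males and 1 in females, in place of 0. Over the whole array the same fit gave 300 calls in males and 127 in females, in place of 227 and 50. These list counts were made for this left-out array alone.

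Some changes that were not called turned direction, most of them small in size, and among them that of Ptgs2 in males (-0.51). In males Ptges was 0.26 with the mean of its probes and 0.059 with array weights, and Ptger3 0.10 with normexp. In females Ptges was 0.050 with the mean of its probes, and Ptgfr -0.023 with median scaling, -0.0048 in the authors' table and -0.093 with array weights. When 1 array was left out, the ranges that crossed 0 were, in males, -0.013 to 0.40 for Ptger1, -0.081 to 0.098 for Ptges, -0.39 to 0.022 for Ptgis and -0.93 to 0.21 for Ptgs2, and in females -0.19 to 0.049 for Ptger2, -0.28 to 0.094 for Ptger3, -0.18 to 0.12 for Ptgfr and -0.48 to 0.037 for Ptgs2. The cause was not tested.

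Over the whole array, 227 genes were called in males, 756 with normexp (which moved the median of all genes by 0.12), 547 with no filter, 469 with no fold limit, 747 with unadjusted p, 496 and 0 with the t-test before and after adjustment and 14 with each sex alone. In females 50 were called, 18 with no filter, 509 with unadjusted p, 393 and 1 with the t-test, 94 alone, 197 with array weights and 3 with the block. The difference of age changes gave 40, 463 with normexp, 6 with no filter, 76 with probes well above background on all 16 arrays, 25 with the mean of probes, 2647 with unadjusted p, 280 with array weights, 69 with a variance trend and 14 with the block. MAT males against MAT females gave 42, 18 with normexp, 21 with all 16 arrays, 78 with a floor, 686 with unadjusted p and 630 with array weights. AGED males against AGED females gave 832, 1357 with no filter, 520 with all 16 arrays, 1366 with unadjusted p and 2549 with no fold limit. When 1 array was left out these counts ran from 122 to 380, 1 to 127, 6 to 278, 17 to 114 and 615 to 1242.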
